A study of Mus musculus with 9 samples.

Results

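Neurexophilins, neurexins and neuroligins were followed through the sorted cells of the embryonic mouse knee. The 9 genes Nxph1, Nxph2, Nxph3, Nxph4, Nrxn2, Nrxn3, Nlgn1, Nlgn2 and Nlgn3 were read out of 54532 gene identifiers in the deposited table of normalized counts, and other genes of these families are not described. The set was chosen on Nxph1, because earlier values from these same libraries showed no Nxph1 in 1 population and its highest level in another. The Nxph1 levels are therefore a description with no test, whereas the other genes were tested in a fit over the whole table. The study asks how the transcription factor Creb5 controls its own expression and the gene program of the forming joint.

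All cells came from the knees of embryos at E14.5, counted in embryonic days, that carried 2 reporter alleles over wild type, Creb5 3XHA-P2A-tdTomato/+ and Sox9 iresEGFP/+. The first allele couples the red protein tdTomato to Creb5, a gene of the joint-forming region. The second places EGFP behind Sox9, the master transcription factor of cartilage. Every population shares this genotype, so no wild-type or Creb5-mutant cells enter any comparison. The cells were sorted by fluorescence into GFP-only cells (Sox9 reporter alone), RFP-only cells (Creb5 reporter alone) and double-positive cells (both). Each population was sequenced as bulk polyadenylated RNA from 3 independent litters, numbered 1, 2 and 5, which gives 9 libraries of 25199258 to 47079305 reads. The litters numbered between 2 and 5 were left out of the deposited knee counts, per their label.

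The reporters' own genes followed the sort. Creb5 averaged 202.8 ± 68.1 normalized counts (SD, n = 3) in GFP-only cells, 3044 ± 333 among double-positive cells and 2960 ± 832 among RFP-only cells. Sox9 averaged 28910 ± 8025, 23470 ± 6622 and 1618 ± 457 in the same order. The summed level of 5 cartilage genes was 985400 or more in every GFP-only library and 9141 or less in every RFP-only library. The summed level of 6 joint interzone genes was 45480 to 98600 in double-positive libraries, 32660 to 37390 in RFP-only libraries and 6267 to 6760 in GFP-only libraries. Sfrp2 made up most of every sum, with 26380 to 30450 in the RFP-only libraries. Sfrp2, Osr2 and Prg4 were higher in every RFP-only library than in any GFP-only library, whereas Gdf5, Erg and Barx1 were lower.

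Neurexins are cell-surface receptors best known from the presynaptic membrane of neurons. Neuroligins are their partners on the facing postsynaptic membrane, and the bond between both families helps to form and specify synapses. Neurexophilins are small secreted glycoproteins that bind tightly to the extracellular part of alpha-neurexins. The knee at this stage is mostly skeletal precursor tissue, into which nerves grow.

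The neurexophilins and the neuroligins are each encoded by related genes, which bears on how far reads can be assigned to 1 of them. Over the aligned coding bases of GENCODE M21 transcripts (build GRCm38, which is mm10), Nxph1 was identical to Nxph2 at 67.0%, to Nxph3 at 63.5% and to Nxph4 at 59.5% of positions. The longest run of bases shared by Nxph1 and any of these 3 genes was 17, with Nxph3. Among the neuroligins, identity was 65.6% for Nlgn1 and Nlgn2, 69.2% for Nlgn1 and Nlgn3 and 68.3% for Nlgn2 and Nlgn3, with no shared run longer than 23 bases. The stretches of 90 coding bases in which the other genes of each family best match Nxph1 or Nlgn1, without gaps, are shown here. Each stretch was chosen on the matches summed over the other genes of its family, so a single gene can match better elsewhere. Only coding bases were compared. They are written 5′ to 3′ on the coding strand, and capitals mark the bases that differ from Nxph1 or, among the neuroligins, from Nlgn1.
Nxph1: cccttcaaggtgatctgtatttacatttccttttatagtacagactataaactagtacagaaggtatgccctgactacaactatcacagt
Nxph2: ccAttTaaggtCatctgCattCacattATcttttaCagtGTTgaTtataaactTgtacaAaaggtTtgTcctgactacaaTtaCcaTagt
Nxph3: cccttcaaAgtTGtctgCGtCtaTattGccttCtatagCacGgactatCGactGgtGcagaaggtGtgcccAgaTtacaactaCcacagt
Nxph4: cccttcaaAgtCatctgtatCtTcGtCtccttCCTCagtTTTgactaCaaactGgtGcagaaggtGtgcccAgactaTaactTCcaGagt
Nlgn1: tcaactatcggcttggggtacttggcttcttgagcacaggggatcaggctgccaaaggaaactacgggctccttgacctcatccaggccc
Nlgn2: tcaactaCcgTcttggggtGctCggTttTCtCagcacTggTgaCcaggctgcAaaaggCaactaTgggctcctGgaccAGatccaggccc
Nlgn3: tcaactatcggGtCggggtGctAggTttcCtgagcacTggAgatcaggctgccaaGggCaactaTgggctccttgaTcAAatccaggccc

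The Nxph1 stretch is coding bases 700 to 789 of 813 and lies in 1 exon at chr6:9247730-9247819 on the plus strand. Nxph2 differs from it at 19 bases (chr2:23400307-23400396, plus strand), Nxph3 at 19 bases (chr11:95510855-95510944, minus strand) and Nxph4 at 22 bases (chr10:127526127-127526216, minus strand). The neuroligin stretch spans 2 coding exons in each gene, at chr3:25440012-25912665 on the minus strand for Nlgn1. Nlgn2 differs from Nlgn1 there at 17 bases (chr11:69828138-69828388, minus strand) and Nlgn3 at 14 bases (chrX:101308883-101315197, plus strand).

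Nxph1 (ENSMUSG00000046178), the founding neurexophilin, lies on the plus strand of chromosome 6 from 8948431 to 9249032. No read of Nxph1 was counted in any GFP-only library, out of 114608619 reads over the 3. In double-positive cells its normalized counts were 1395 in litter 1, 678.3 in litter 2 and 689.4 in litter 5, from 1452, 870 and 922 reads. In RFP-only cells they were 105.9, 258.2 and 256.2, from 139, 228 and 183 reads. Every double-positive library lay above every RFP-only library, and every RFP-only library above every GFP-only library.

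Because GFP-only cells gave 0 reads, the difference from them can only be bounded. Measured against 3 reads over the group, which corresponds to 1.09 normalized counts, Nxph1 was at least 816-fold higher in double-positive cells and at least 174-fold higher in RFP-only cells. These bounds cover counting error alone. The double-positive mean of 920.9 ± 411 (SD, n = 3) was 4.45 times the RFP-only mean of 206.8 ± 87.4. Within litters that ratio was 13.2 in litter 1, 2.63 in litter 2 and 2.69 in litter 5, so litter 1 had both the highest double-positive and the lowest RFP-only level. In bulk samples, fewer cells with a transcript and less transcript per cell cannot be told apart, here and in all values that follow.

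**Figure D1:**
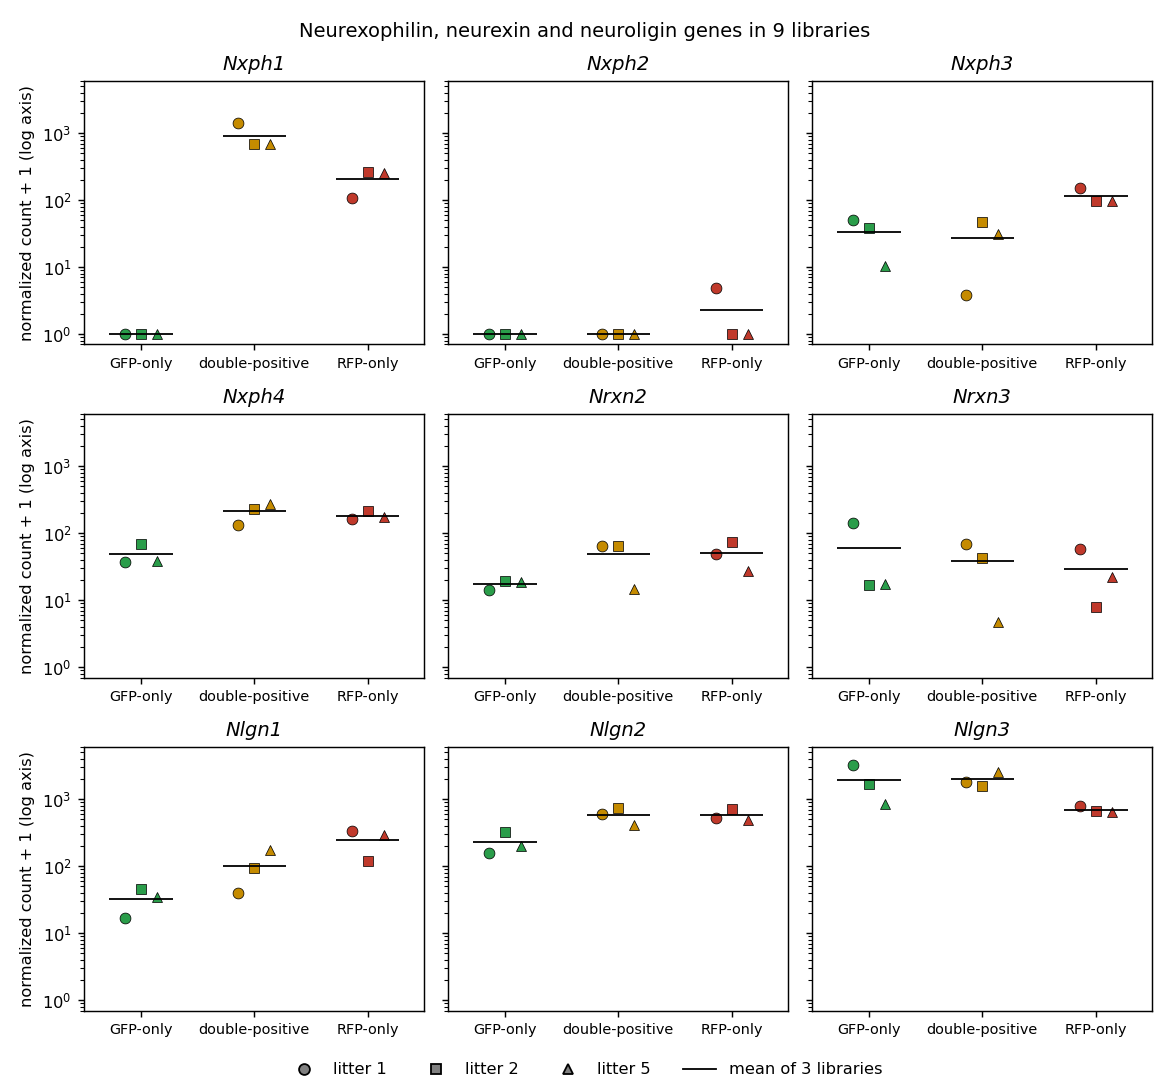
Normalized counts plus 1 (log axis) of the 9 genes in each library, by population, with a different symbol for each litter and a line at the mean of 3 libraries. Nxph1 is at 0 in the 3 GFP-only libraries and between 678.3 and 1395 in the double-positive ones, whereas Nlgn3 is read in every library.

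Of the other 8 genes, Nxph2 lay below the filter of a mean of 10 normalized counts and 7 were tested with limma on log2(normalized count + 1). A fold change on that scale understates the change of low genes. Against GFP-only cells, 2 of the 7 were higher (Nxph4 and Nlgn2) and 0 lower among double-positive cells, where 5.27% of all 17764 tested genes were higher and 3.02% lower. Between RFP-only and GFP-only cells, 3 were higher (Nxph4, Nlgn1 and Nlgn2) and 1 lower (Nlgn3), where 11.8% of all tested genes were higher and 8.48% lower. The median log2 difference of the 7 genes was 1.19 in the first comparison and 1.43 in the second, beside 0.04 and 0.05 over all tested genes. Both comparisons share the GFP-only libraries.

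Between double-positive and RFP-only cells, limma called 0 of the 7 genes, where 1.80% of all tested genes were higher and 1.05% lower. At an unadjusted p under 0.05 the count was 2, Nxph3 and Nlgn3. edgeR on the recovered reads called 0 and DESeq2 called 1, Nlgn3. The median log2 difference of the 7 genes was 0.00, beside -0.01 over all tested genes.

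**Figure D2:**
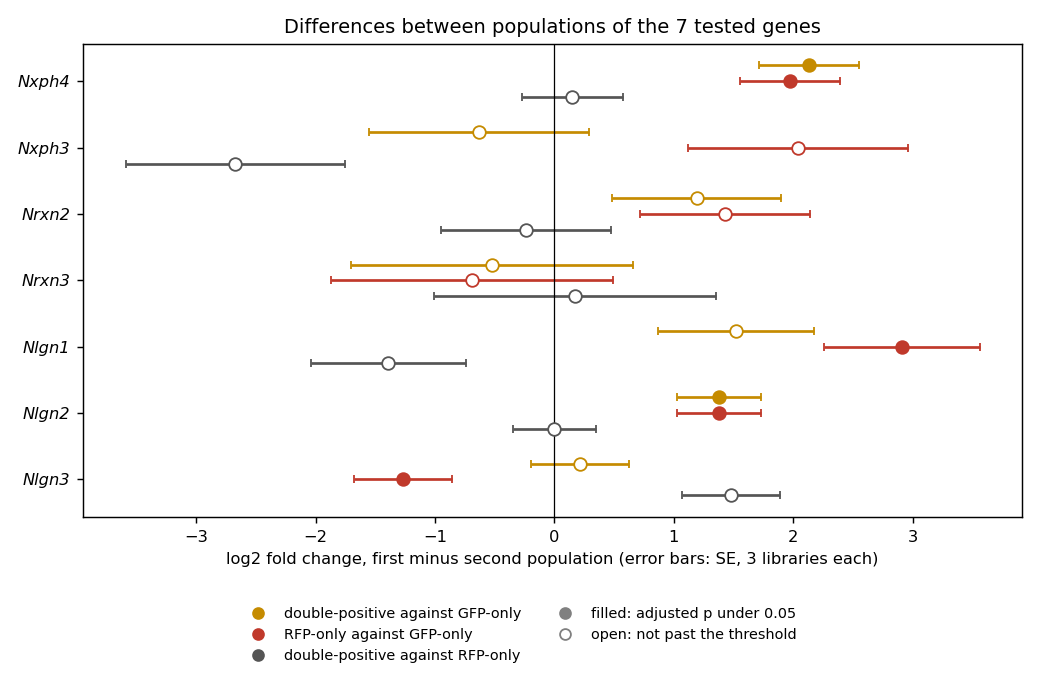
Log2 fold changes of the 7 tested genes in the 3 comparisons, with bars for the SE from the limma fit over 3 libraries a population and filled points where the adjusted p is under 0.05. Nxph4 and Nlgn2 lie to the right of 0 against GFP-only cells and near 0 between the Creb5 reporter populations, and Nlgn3 is the gene called lower.

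Nxph4 (ENSMUSG00000040258, chromosome 10, minus strand, 127525473 to 127534559) is the most divergent neurexophilin from Nxph1 in coding sequence. Its normalized counts in litters 1, 2 and 5 were 35.5, 68.6 and 38.0 in GFP-only cells. They were 130.7, 227.6 and 273.7 among double-positive cells and 159.2, 214.0 and 173.6 among RFP-only cells. All 6 libraries with the Creb5 reporter lay above the 3 GFP-only libraries, and the double-positive and RFP-only values overlapped. The log2 fold change against GFP-only cells was 2.13 ± 0.42 (SE) in double-positive cells (limma, adjusted p = 0.0123) and 1.97 ± 0.42 in RFP-only cells (limma, adjusted p = 0.00746). The second call held under 20 of 20 alternative settings. The first was lost in a fit of only those 2 populations (adjusted p = 0.0528 by limma) and when double-positive litter 2 was left out (0.0569).

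Double-positive and RFP-only cells differed in Nxph4 by 0.15 on the log2 scale, with a 95% interval of -0.78 to 1.09 (limma, adjusted p = 0.973). Unlike Nxph1, which was not read in GFP-only cells, Nxph4 was read there in each library, with 43, 56 and 28 reads.

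Nxph3 (ENSMUSG00000046719, chromosome 11, minus strand, 95509845 to 95514570) had its highest levels in RFP-only cells. Its values there were 153.1, 96.3 and 95.2 normalized counts. They were 49.6, 38.0 and 9.50 in GFP-only cells and 2.88, 46.0 and 29.9 in double-positive cells. The RFP-only values overlapped with neither of the other populations, but no comparison passed the threshold. Against RFP-only cells the log2 difference of double-positive cells was -2.67 ± 0.92 (SE; limma, adjusted p = 0.187). Against GFP-only cells it was 2.04 ± 0.92 in RFP-only cells (limma, adjusted p = 0.143) and -0.63 ± 0.92 in double-positive cells (adjusted p = 0.708 by limma). The double-positive value of litter 1 rests on 3 reads.

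Nxph2 (ENSMUSG00000069132, chromosome 2, plus strand, 23321246 to 23401973), the paralog closest to Nxph1 in coding sequence, was read in 1 library only. The RFP-only library of litter 1 held 5 reads, or 3.81 normalized counts. A count of 0 allows up to 3 reads over a group, which is 1.09 normalized counts for the GFP-only and 0.819 for the double-positive group.

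The order of the neurexophilins differed between populations when levels were divided by the length of each gene's exons. In GFP-only cells Nxph4 averaged 28.3 ± 11.0 normalized counts per kilobase (SD, n = 3), Nxph3 15.4 ± 9.83, and Nxph1 and Nxph2 0. In double-positive cells Nxph1 came first with 194 ± 86.4, followed by Nxph4 with 126 ± 43.6 and Nxph3 with 12.5 ± 10.4. The ranges of Nxph1 and Nxph4 overlapped there. In RFP-only cells Nxph4 came first with 109 ± 17.0, then Nxph3 with 54.7 ± 15.8 and Nxph1 with 43.5 ± 18.4, and the ranges of Nxph3 and Nxph1 overlapped.

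Summed over the 4 neurexophilins, the level per kilobase was 43.7 ± 15.9 in GFP-only, 332 ± 37.1 in double-positive and 208 ± 18.5 in RFP-only cells. Nxph1 made up 78.7%, 47.5% and 45.0% of that sum in the double-positive libraries of litters 1, 2 and 5. Its share in the RFP-only libraries was 11.6%, 23.8% and 26.6%. Nxph4 made up 66.7% ± 18.2, 38.9% ± 15.8 and 52.2% ± 3.39 in GFP-only, double-positive and RFP-only cells.

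**Figure D3:**
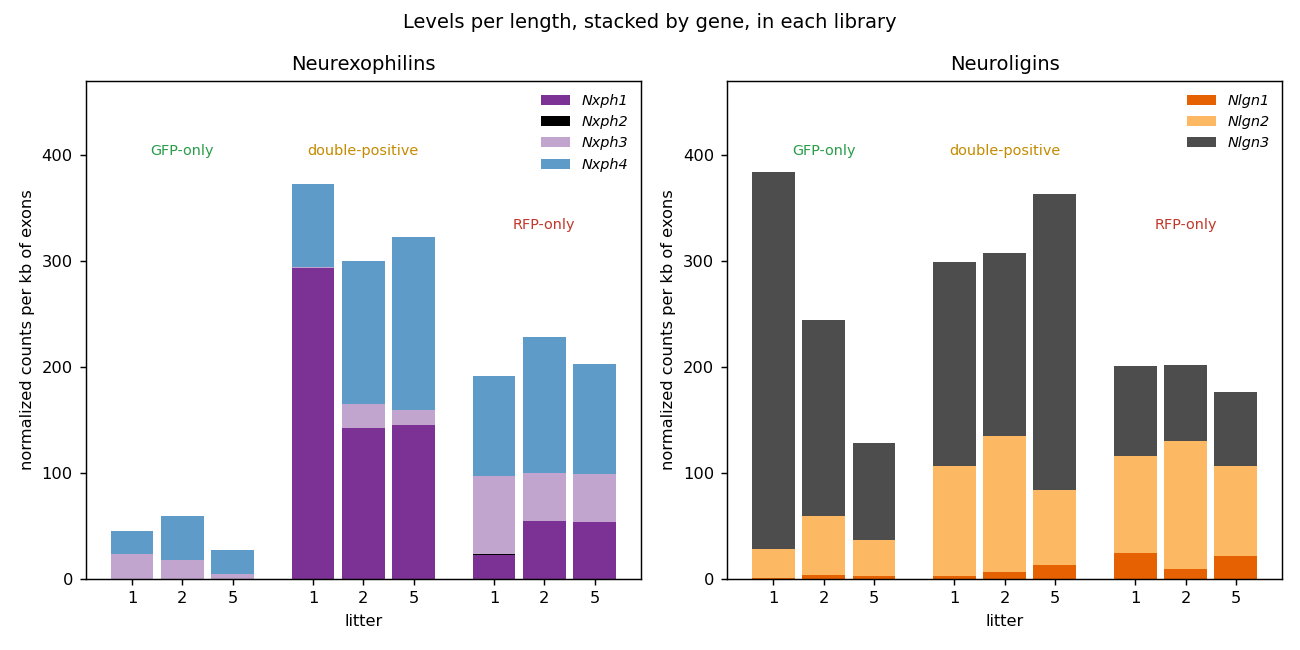
Normalized counts per kilobase of exons in each library, stacked by gene, for the 4 neurexophilins (left) and the 3 neuroligins (right), by population and litter. The neurexophilin bars are lowest in GFP-only cells and hold no Nxph1 there, and Nlgn3 is most of the neuroligin bar in GFP-only and double-positive cells.

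The neurexins Nrxn2 and Nrxn3, receptors of the family to which neurexophilins bind, gave few reads in every population. Nrxn2 (ENSMUSG00000033768, chromosome 19, plus strand, 6418731 to 6544169) had 13.2, 18.4 and 17.6 normalized counts in the GFP-only libraries of litters 1, 2 and 5. It had 64.4, 63.9 and 13.5 among double-positive cells and 48.0, 73.6 and 26.6 among RFP-only cells. The RFP-only values lay above all GFP-only values, whereas the double-positive library of litter 5 fell among them. Neither difference from GFP-only cells passed the threshold, with log2 fold changes of 1.43 ± 0.71 (SE) in RFP-only cells (limma, adjusted p = 0.174) and 1.19 ± 0.71 in double-positive cells (limma, adjusted p = 0.317).

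Nrxn3 (ENSMUSG00000066392, chromosome 12, plus strand, 88722876 to 90334935) spanned a wide range over the litters of each population. Its normalized counts were 142.2, 15.9 and 16.3 in GFP-only cells, 68.2, 42.1 and 3.74 among double-positive cells and 57.1, 6.80 and 21 among RFP-only cells. Litter 1 was the highest in each population and the values of all populations overlapped. The log2 difference was -0.52 between double-positive and GFP-only cells (95% interval -3.12 to 2.08) and -0.69 between RFP-only and GFP-only cells (95% interval -3.29 to 1.91). With intervals this wide, differences of several fold in either direction were not detectable at this depth and spread.

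Per kilobase of exons, Nrxn2 averaged 1.19 in GFP-only, 3.42 in double-positive and 3.58 in RFP-only cells, and Nrxn3 averaged 4.61, 3.02 and 2.25. The ranges of both genes overlapped in each Creb5 reporter population. In double-positive cells the highest neurexin value, 5.41 per kilobase for Nrxn3, lay below the lowest Nxph1 value of 143. The exon length used counts every annotated exon, including those of isoforms that may not be made here, so the values of these long, many-isoform genes are low estimates.

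Nlgn1 (ENSMUSG00000063887, chromosome 3, minus strand, 25426215 to 26332460) is the neuroligin known from excitatory synapses. Its normalized counts were 15.7, 45.3 and 33.9 in GFP-only cells, 38.4, 92.0 and 174.2 among double-positive cells and 332.9, 117.8 and 291.2 among RFP-only cells. All RFP-only values lay above all GFP-only values, and the double-positive values overlapped with both. In RFP-only cells, Nlgn1 was higher than in GFP-only cells by 2.91 ± 0.65 (SE) on the log2 scale (limma, adjusted p = 0.00879), a call that held under 20 of 20 alternatives. The difference of double-positive cells was 1.52 ± 0.65 from GFP-only cells (limma, adjusted p = 0.173) and -1.39 ± 0.65 from RFP-only cells (limma, adjusted p = 0.392).

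Nlgn2 (ENSMUSG00000051790, chromosome 11, minus strand, 69823122 to 69837784) is the neuroligin of inhibitory synapses. Its normalized counts were 157.9, 324.4 and 199.4 in GFP-only cells, 597.6, 739.9 and 407.5 among double-positive cells and 528.6, 703.2 and 488.6 among RFP-only cells. Litter 2 was the highest in each population, and both Creb5 reporter populations lay above all GFP-only values. The log2 fold change against GFP-only cells was 1.38 ± 0.35 (SE) in RFP-only cells (limma, adjusted p = 0.0165) and 1.38 ± 0.35 in double-positive cells (limma, adjusted p = 0.0336). The Creb5 reporter populations differed by 0.00 on that scale, with a 95% interval of -0.76 to 0.76.

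The Nlgn2 call in double-positive cells was lost under 9 of 20 alternatives, with limma adjusted p-values of 0.0519 to 0.136. It was lost without GFP-only litter 1 or 5, without double-positive litter 1 or 2 and without RFP-only litter 1 or 5. The call in RFP-only cells was lost only without RFP-only litter 2 (limma, adjusted p = 0.0688).

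Nlgn3 (ENSMUSG00000031302, chromosome X, plus strand, 101299168 to 101325963), which is known from both kinds of synapse, was the most abundant of the neuroligins per length in GFP-only and double-positive cells. Its normalized counts were 3299, 1716 and 846.6 in the GFP-only libraries of litters 1, 2 and 5. They were 1787, 1600 and 2596 among double-positive cells and 789.2, 665.9 and 651.0 among RFP-only cells. Every RFP-only value was below every value of the other populations, whose own values overlapped. The RFP-only cells were lower than GFP-only cells by a log2 difference of -1.27 ± 0.41 (SE; limma, adjusted p = 0.0496), just past the threshold. Against RFP-only cells the difference of double-positive cells was 1.48 ± 0.41 (limma, adjusted p = 0.0916) and did not pass.

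The Nlgn3 call between RFP-only and GFP-only cells was lost under 14 of 20 alternative settings, with limma adjusted p-values of 0.0518 to 0.136. They include a block for litter (0.057), TMM scaling (0.0688) and leaving out any library other than the GFP-only one of litter 5. Without GFP-only litter 1 the difference shrank to -0.78 (limma, adjusted p = 0.122). Conversely, the difference between double-positive and RFP-only cells passed under 5 alternatives. These were quantile normalization (0.0374), a fit of only those 2 populations (0.00934), DESeq2 (0.00977) and leaving out GFP-only litter 1 (0.0306) or 5 (0.0125).

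Nlgn3 also shares exons with Gm21986, a gene on the same strand. The shared 3823 bases are 41.2% of the exonic bases of Nlgn3 and 68.8% of those of Gm21986, so its counts are uncertain where reads were split between the pair. Gm21986 averaged 893.4 normalized counts in GFP-only, 728.2 in double-positive and 360.0 in RFP-only cells, so it too was lowest in RFP-only cells. With both genes summed, the difference between RFP-only and GFP-only cells was -1.21 ± 0.41 (limma, adjusted p = 0.0596).

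Genes of Schwann cells and glia also varied over the GFP-only litters, in differing directions. Cdh19, a cadherin of Schwann cells, was 558.0, 506.8 and 173.7 normalized counts in GFP-only litters 1, 2 and 5, whereas S100b was 1738, 3366 and 8036 and Fabp7 300.9, 199.6 and 2229. Cdh19 averaged 6.16 among double-positive cells beside 412.8 among GFP-only cells, whereas Sox10 averaged 1105 beside 1611 (limma, adjusted p = 0.359). Of 8 such genes, limma called 3 lower and 0 higher among double-positive than among GFP-only cells. The whole list of 8 such genes summed to 6215, 6823 and 11680 in the GFP-only litters. Its sums were 1786 to 3262 in double-positive and 1777 to 2169 in RFP-only libraries, and 0 of the 8 genes were at 0 throughout a population. The list includes S100b and Sox10, which cartilage also expresses. The part of such cells in the Nlgn3 values was not tested.

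Per kilobase, the neuroligins changed places between the populations. Nlgn3 averaged 211 ± 134 in GFP-only, 215 ± 57.1 in double-positive and 75.7 ± 8.18 in RFP-only cells (SD, n = 3), and Nlgn2 averaged 39.3 ± 15.0, 101 ± 28.8 and 99.1 ± 19.7. The lowest Nlgn3 library lay above the highest Nlgn2 library in the GFP-only and the double-positive population, whereas the ranges of both overlapped in RFP-only cells. Nlgn3 was 79.8% ± 11.3, 65.9% ± 10.5 and 39.2% ± 3.42 of the neuroligin sum in GFP-only, double-positive and RFP-only cells. Nlgn1 was 1.22% ± 0.844, 2.25% ± 1.31 and 9.65% ± 4.60 of it. In double-positive cells the highest levels per kilobase among the 9 genes were those of Nlgn3 (215) and Nxph1 (194), whose ranges overlapped.

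Other genes that encode partners of neurexins and neuroligins were read from 4 lists made with earlier results of these data known. The list of neurexin ligands and receptors holds 23 genes, of which 20 were tested. Between double-positive and GFP-only cells 11 were higher and 0 lower, where 5.27% of all tested genes were higher and 3.02% lower. The median log2 difference was 1.91, beside 0.04 over all tested genes. Between RFP-only and GFP-only cells 12 were higher and 0 lower, where 11.8% of all tested genes were higher and 8.48% lower, with a median of 2.73 beside 0.05. Over the alternatives, libraries left out included, the first count ranged from 8 to 13 and the second from 9 to 13. The filter was on the mean over all 9 libraries, so Cbln1, Cbln4 and C1ql3 passed it only through the Creb5 reporter populations. C1ql2, C1ql4 and Igsf21 did not pass it. Their means in GFP-only, double-positive and RFP-only cells were 16.7, 3.74 and 1.52 (C1ql2), 4.53, 12.4 and 1.39 (C1ql4) and 10.5, 0.249 and 10.5 (Igsf21).

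Secreted ligands were among the genes called. Cbln2, a cerebellin that links neurexins to glutamate-receptor family proteins, had 139.7, 143.2 and 120.8 normalized counts in GFP-only litters 1, 2 and 5. It had 564.0, 1010 and 554.8 among double-positive cells and 1245, 1881 and 1764 among RFP-only cells, with no overlap between populations. Its log2 fold change against GFP-only cells was 2.33 ± 0.30 (SE) in double-positive cells (limma, adjusted p = 0.00158) and 3.57 ± 0.30 in RFP-only cells (limma, adjusted p = 2.3e-05). C1ql3, a secreted C1q-like protein, averaged 1.81 ± 3.13 (SD, n = 3) in GFP-only, 122.0 ± 56.1 in double-positive and 205.9 ± 18.7 in RFP-only cells (5.94 ± 0.75 on the log2 scale in double-positive cells).

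Cbln4, another cerebellin, was read once over the 3 GFP-only libraries, 175 times in double-positive and 643 times in RFP-only cells. The ratio of RFP-only to GFP-only cells was 611, with a 95% counting interval of 109 to 24200. Cbln4 passed the filter only through the Creb5 reporter populations, so no p-value is given for it.

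Some membrane proteins of the list also passed. Lrrtm1, Lrrtm3, Lrrtm4, Adgrl2 and Adgrl3 were higher than in GFP-only cells in both Creb5 reporter populations, and Clstn2 in RFP-only cells alone by this test. Lrrtm2, Clstn1, Clstn3, Dag1 and Adgrl1 passed in neither, with limma adjusted p-values from 0.0617 to 0.747. Adgrl3, a latrophilin (an adhesion receptor coupled to G proteins), averaged 422.7 ± 65.0 in GFP-only, 1616 ± 175 in double-positive and 2267 ± 612 in RFP-only cells. The double-positive cells differed from GFP-only cells by a log2 fold change of 1.94 ± 0.26 (SE; limma, adjusted p = 0.00177). Adgrl2, a second latrophilin, averaged 801.9 ± 204, 2970 ± 927 and 6603 ± 37.2 in the same order, a log2 fold change of 3.08 ± 0.26 in RFP-only cells (limma, adjusted p = 2.54e-05).

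Between double-positive and RFP-only cells, 1 of the 20 neurexin ligands and receptors was higher and 2 were lower. Over all tested genes 1.80% were higher and 1.05% lower in this comparison. The median log2 difference of the list was -0.44, beside -0.01 over all tested genes. The gene that was higher was Fam19a2, which encodes a small secreted protein. It averaged 248.9 ± 103 in GFP-only, 1294 ± 477 in double-positive and 368.3 ± 94.0 in RFP-only cells, and its double-positive values of 1834, 1116 and 932.4 lay above all others. Its log2 difference from RFP-only cells was 1.78 ± 0.39 (SE; limma, adjusted p = 0.0361). Lrrtm1, a leucine-rich repeat protein of the postsynaptic membrane, was lower by -1.78 ± 0.37 (limma, adjusted p = 0.0273) and Adgrl2 by -1.20 ± 0.26 (limma, adjusted p = 0.0368).

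These 3 calls were sensitive to single libraries. The Fam19a2 call was lost under 7, the Lrrtm1 call under 5 and the Adgrl2 call under 9 of 20 alternatives, with limma adjusted p-values up to 0.167, 0.141 and 0.166. Leaving out any 1 RFP-only library, or double-positive litter 1 or 5, lost all 3, and leaving out double-positive litter 2 lost the Fam19a2 call.

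The list of neuroligin extracellular partners and proteases holds 8 genes, and each was tested. For double-positive against GFP-only cells, limma called 0 of 8, where 5.27% of all tested genes were higher and 3.02% lower. At an unadjusted p under 0.05 the count was 2, and edgeR and DESeq2 each called 1 lower. Between RFP-only and GFP-only cells 2 were higher and 0 lower, where 11.8% of all tested genes were higher and 8.48% lower. There edgeR, DESeq2 and limma without GFP-only litter 5 each called 1 lower. The list median was 0.08 on the log2 scale, beside 0.05 over all tested genes. Sparcl1 (hevin), a secreted protein that bridges neurexins and neuroligins, averaged 997.4 ± 336 in GFP-only, 1786 ± 535 in double-positive and 2363 ± 624 in RFP-only cells (1.26 ± 0.31 for RFP-only cells, limma adjusted p = 0.0155). Adam10, a protease that sheds neuroligins, averaged 1753 ± 1029, 2505 ± 462 and 4092 ± 988 in the same order (1.41 ± 0.43 for RFP-only cells, limma adjusted p = 0.0382).

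The Adam10 call was lost under 11 of 20 alternatives and the Sparcl1 call under 2, both without RFP-only litter 2 and without RFP-only litter 5. With litter as a block, the Adam10 call was lost (limma, adjusted p = 0.0545) and the count for the list was 1. Without either of these libraries the count for the list was 0. It was 1 without RFP-only litter 1 or without any 1 double-positive library.

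Among 23 intracellular adaptors, all of them tested, against GFP-only cells double-positive cells had 4 higher and 0 lower (median log2 difference 0.37), beside 5.27% higher, 3.02% lower and a median of 0.04 over all tested genes. In RFP-only cells 7 were higher and 1 lower (median 0.60), beside 11.8%, 8.48% and 0.05. Dlgap1, a scaffold protein of the postsynaptic density, averaged 55.8 ± 21.9 in GFP-only, 610.3 ± 147 in double-positive and 359.3 ± 109 in RFP-only cells. The log2 fold change was 3.46 ± 0.39 (SE) in double-positive cells (limma, adjusted p = 0.000702) and 2.68 ± 0.39 in RFP-only cells (limma, adjusted p = 0.000808). Lin7a, which joins the adaptor Cask at the neurexin tail, averaged 44.4 ± 29.2, 494.7 ± 224 and 595.4 ± 178. It rose by 3.69 ± 0.62 in double-positive cells (limma, adjusted p = 0.00503) and by 4.01 ± 0.62 in RFP-only cells (limma, adjusted p = 0.0011).

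Dlg2 (PSD-93) averaged 18.5 ± 7.61 in GFP-only, 158.4 ± 44.4 in double-positive and 136.2 ± 13.3 in RFP-only cells. The log2 fold change was 3.06 ± 0.45 in double-positive cells (limma, adjusted p = 0.00265) and 2.88 ± 0.45 in RFP-only cells (limma, adjusted p = 0.00117). The gene that was lower was Apba2 (Mint2), an adaptor that binds neurexin tails, with 753.4 ± 308, 412.7 ± 93.4 and 223.7 ± 101 in the same order. Its difference of -1.74 ± 0.42 in RFP-only cells (limma, adjusted p = 0.0138) was lost without RFP-only litter 5 (0.0631).

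The last list holds 30 other synaptic adhesion molecules, of which 28 were tested. In double-positive cells 9 were higher and 1 lower than in GFP-only cells (median log2 difference 1.34), where 5.27% of all tested genes were higher and 3.02% lower (median 0.04). In RFP-only cells 16 were higher and 1 lower (median 1.95), where the shares over all tested genes were 11.8% and 8.48% (median 0.05). Both medians were the same with Ptpro at its bound. The first count fell to 5 without double-positive litter 1, to 4 without double-positive litter 2 and to 4 in a fit of only the 2 populations. The second fell to 10 without RFP-only litter 1 and to 10 without RFP-only litter 5. For double-positive against RFP-only cells, limma called 0 of the 28, where 1.80% of all tested genes were higher and 1.05% lower. There edgeR called 0 and DESeq2 2 lower, and at an unadjusted p under 0.05 the count was 4. Limma called 3 lower in a fit of only these 2 populations and 3 lower without GFP-only litter 5. None of the 23 adaptors was called in that comparison by limma over all 9 libraries or by edgeR, with 5 at an unadjusted p under 0.05. By DESeq2, in the fit of 2 populations and without GFP-only litter 5, 1 adaptor was lower.

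Ptpro, a receptor tyrosine phosphatase, shared with Nxph1 a count of 0 reads in all GFP-only libraries. Its normalized counts were 142.2, 144.2 and 229.5 in double-positive and 93.7, 23.8 and 60.2 in RFP-only cells. It was at least 161-fold higher in double-positive cells and at least 59.2-fold higher in RFP-only cells, measured against 3 reads over the GFP-only group. Slitrk3, a ligand of receptor phosphatases, was read once in GFP-only cells, 181 times in double-positive cells and 294 times in RFP-only cells. Its ratio to GFP-only cells was 137 (95% counting interval 24.2 to 5430) and 279 (49.7 to 11100).

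Slitrk1, of the same family as Slitrk3, averaged 6.42 ± 6.76 in GFP-only, 169.6 ± 84.9 in double-positive and 349.2 ± 140 in RFP-only cells (6.18 ± 0.86 on the log2 scale for RFP-only cells). Ntng1 (netrin-G1), a membrane-anchored adhesion protein of axons, averaged 144.2 ± 40.9, 758.7 ± 165 and 557.8 ± 81.0 (2.40 ± 0.31 for double-positive cells, limma adjusted p = 0.00152). Cadm1 (SynCAM 1) was the gene that was lower in both, with 3224 ± 838, 1343 ± 169 and 1751 ± 413. Its difference was -1.23 ± 0.26 in double-positive cells (limma, adjusted p = 0.0167), lost without double-positive litter 2 or 5. In RFP-only cells it was -0.88 ± 0.26 (limma, adjusted p = 0.0379), lost under 13 of 20 alternatives, the block for litter among them (limma, adjusted p = 0.0515). Leaving out any 1 library other than GFP-only litter 1 was among those 13, whose limma adjusted p-values ranged from 0.0515 to 0.158.

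**Figure D4:**
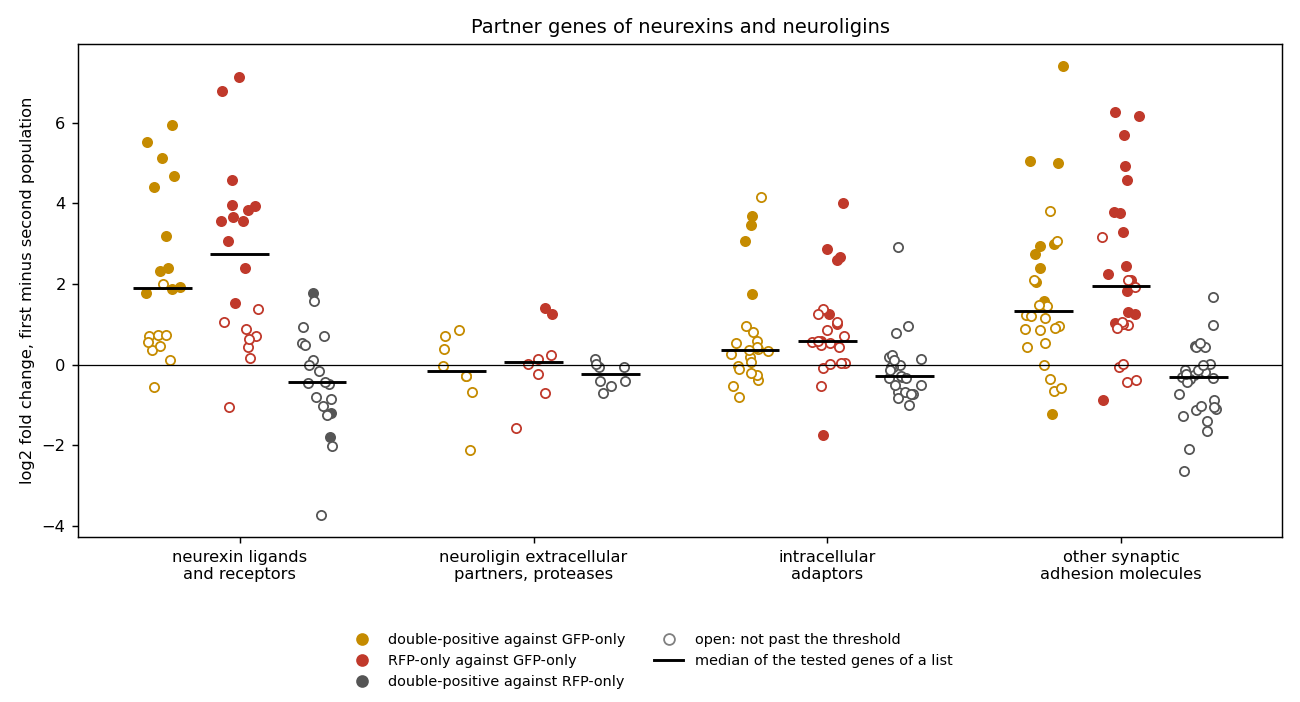
Log2 fold changes of the tested genes of 4 partner lists in the 3 comparisons, 1 point a gene, filled where the limma adjusted p is under 0.05, with a line at each list's median. Most filled points of the neurexin ligands and of the other adhesion molecules lie above 0 against GFP-only cells, and few are filled in the comparison of the Creb5 reporter populations.

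The summed level of neuron markers was also higher in the populations with the Creb5 reporter. The summed level of 10 neuron genes was 839.8 to 1228 normalized counts in GFP-only, 2270 to 4950 in double-positive and 5694 to 6658 in RFP-only libraries. Nefl and Nefm, 2 neurofilament genes, made up most of the sum in the Creb5 reporter populations. Of the 9 neuron genes tested, against GFP-only cells double-positive cells had 4 higher and 1 lower, and 4 were higher and 0 lower in RFP-only cells. Over all tested genes these shares were 5.27% higher and 3.02% lower, and 11.8% and 8.48%. The 4 that were higher in both were Nefl, Nefm, Snap25 and Prph. Snap25, a protein of synaptic vesicle fusion, averaged 2.63 normalized counts in GFP-only, 63.3 in double-positive and 267.8 in RFP-only cells. Prph, the gene of the intermediate filament peripherin, averaged 12.1, 76.1 and 204.9 (limma, adjusted p = 0.016 and 0.000453 against GFP-only cells). The pan-neuronal Tubb3 was 139.6 or less in every library and Elavl3 12.7 or less, and Stmn2 had its highest values in GFP-only cells (232.3, 427.3 and 105.8). None of the 10 was at 0 throughout a population.

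Marker sums of further cell types that the sort could hold also differed. The 6 skeletal muscle genes summed to 548.0 to 1434 in GFP-only, 911.8 to 2862 in double-positive and 7448 to 30130 in RFP-only libraries. The 5 endothelial genes summed to 251.3 to 859.4, 463.1 to 2790 and 2471 to 2803, and the 6 blood and immune genes to 139.7 to 386.9, 1266 to 7870 and 716.8 to 1928. The part of neurons and of these other cells in the partner list counts, and in the levels of Nxph1, was not tested.

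The levels of the nearest protein-coding genes on both sides of Nxph1 on chromosome 6 were also read. Glcci1, which ends 350883 bases to the left of Nxph1, had 660.5, 733.3 and 687.9 normalized counts in GFP-only cells, 1888, 1815 and 1228 among double-positive cells and 605.6, 547.0 and 572.6 among RFP-only cells. It was higher in double-positive cells than in GFP-only cells by 1.22 ± 0.24 (SE) on the log2 scale (limma, adjusted p = 0.0105) and than in RFP-only cells by 1.49 ± 0.24 (limma, adjusted p = 0.00631). The first call was lost without double-positive litter 2 (0.0553) and the second held under 20 of 20 alternatives. Glcci1 did not pass the threshold between RFP-only and GFP-only cells (-0.27 ± 0.24, limma adjusted p = 0.442).

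Ica1, 169943 bases to the left and the nearest of the 4, averaged 475.5 ± 127 in GFP-only, 636.1 ± 83.6 in double-positive and 302.1 ± 21.1 in RFP-only cells, and no comparison passed (limma adjusted p = 0.0683 between double-positive and RFP-only cells). On the right, the next annotated protein-coding genes are Ndufa4, a mitochondrial protein gene, and Phf14, 2651260 and 2658777 bases away. Ndufa4 averaged 9370 ± 4083, 5910 ± 1642 and 6018 ± 1636, and Phf14 averaged 1126 ± 336, 1449 ± 408 and 1325 ± 188. Neither passed in any comparison. Distances and neighbours are from GENCODE M21.

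The genes whose levels over the 9 libraries were most like those of Nxph1 were ranked by Pearson's r on log2(normalized count + 1), among 12688 tested protein-coding genes. A minimum mean of 100 in the population where a gene is highest was required. Among the first 8 were C2cd3 (r = 0.989), Sfrp2 (0.984), Pdlim3 (0.983), Inhba (0.981), Tbx5 (0.979), Epb41l4a (0.978) and Rad54b (0.974). There were 40 genes with r of at least 0.95, and Creb5 itself reached 0.959 and Sox9 -0.358. The 9 libraries form 3 populations, so r mostly follows the population means, and it is a description of these libraries. By Spearman's rho only 1 of the first 8 genes, Rad54b, stayed among the first 8.

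The 7 genes named shared the order of populations with Nxph1 but not its absence from GFP-only cells. Tbx5, a T-box transcription factor, averaged 32.5 ± 4.71 in GFP-only, 780.7 ± 193 in double-positive and 277.7 ± 74.4 in RFP-only cells. Sfrp2, a secreted regulator of Wnt signaling, had 4929, 4117 and 3929 normalized counts in GFP-only cells, 66460, 59320 and 30710 among double-positive cells and 26380, 26900 and 30450 among RFP-only cells. Inhba, the activin beta A subunit, averaged 279.0 ± 48.9, 1463 ± 393 and 976.0 ± 125. C2cd3, a centriole protein with the highest r, averaged 479.0 ± 32.7, 1034 ± 94.3 and 861.5 ± 87.8, so a high r does not mean a difference of like size.

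**Figure D5:**
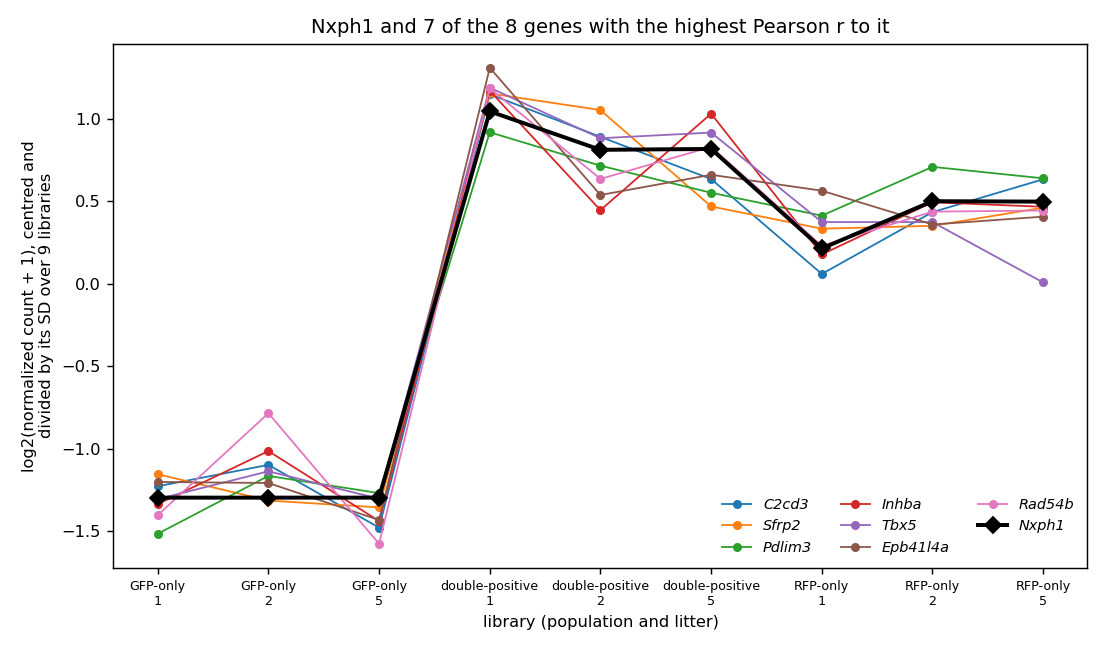
Log2(normalized count + 1), centred and divided by the SD over the 9 libraries, of Nxph1 (black) and 7 of the 8 genes with the highest Pearson r to it, with libraries ordered by population and litter. All 8 genes shown are lowest in the GFP-only libraries, and the scaling hides that Nxph1 alone is at 0 there.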

How the data were processed

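Bulk RNA of 3 sorted populations from 3 litters was analysed. The authors deposited normalized counts per gene, a signal that is a whole number of reads times a factor per library. The reads were recovered from it (100% of values whole within 0.001 read). The tools FastQC, STAR, Salmon and DESeq2 and the build mm10 are listed, with neither version nor role, per the submitters' processing notes. Strand and gene-model settings are not given in the sources used here. Of 54532 identifiers, 54495 matched GENCODE M21 and 23956 had no read.

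The main test was limma 3.58.1 (R 4.3.3) on log2(normalized count + 1) with its trend option, over all 9 libraries and the 17764 genes with a mean of at least 10, two-sided, Benjamini-Hochberg adjusted over all of them, with calls under 0.05. As alternatives, the recovered reads were fitted with edgeR 4.0.16 and DESeq2 1.42.0. The fit was tested on simulated data.

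The members and lists were chosen with earlier results of these data known. Genes named were the 9 members, up to 3 called genes per partner list, comparison and direction with the smallest adjusted p, 2 protein-coding neighbours of Nxph1 a side and the 8 genes most like it, of which 1 is not reported here. Marker genes and list genes named outside this rule were picked after their values were seen.

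A litter number marks a shared litter, per the labels, so the populations are paired. Deviations from the population means had a median correlation of 0.10 over 9 same-litter pairs and -0.04 over 18 other pairs. Each litter is 1 replicate, and the number of embryos in a library is not given. The floors and the counting intervals of ratios cover counting error only, and reads without molecular identifiers are not independent molecules. The 95% intervals of log2 differences are from the limma fit and rest on the spread between libraries.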

Additional observations from a re-analysis of the deposited data

How the results depend on the processing

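Each choice was changed in turn over 20 alternatives. The count of all genes called between double-positive and GFP-only cells was 1472, and 697 in a fit of only those 2 populations, 2780 with DESeq2 and 637 to 1553 with 1 library left out. Between RFP-only and GFP-only cells it was 3601, and 2190 to 3716 with 1 library left out. For double-positive against RFP-only cells it was 506, and 1008 in the fit of 2 populations, 1152 with DESeq2 and 217 to 1050 with 1 library left out. With litter as a block, these counts were 1616, 3673 and 558, and Nlgn3 between RFP-only and GFP-only cells (adjusted p = 0.057, limma) was the only call lost among the 7 tested genes. Among the partner genes refitted under each alternative, the block lost the calls of Adam10 (0.0545) and Cadm1 (0.0515) in that comparison.

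Of the 7 genes, the number called between double-positive and GFP-only cells was 1 with quantile normalization, 1 without the mean-variance trend, 0 in the fit of 2 populations and 0 to 2 with 1 library left out. Between RFP-only and GFP-only cells it was 2 to 4 with 1 library left out. Between double-positive and RFP-only cells it was 1 with quantile normalization, 1 in the fit of 2 populations, 1 with DESeq2 and 0 to 1 with 1 library left out. The cause of these changes was not tested.

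Signs changed only where no difference was called. Between double-positive and RFP-only cells, Nrxn3 was -0.07 with quantile normalization, and Nlgn2 was 0.01 with TMM, 0.02 with quantile normalization, 0.03 with edgeR and 0.02 with DESeq2. With 1 library left out, that comparison gave -0.07 to 0.46 for Nxph4, -0.62 to 0.48 for Nrxn2, -0.59 to 1.34 for Nrxn3 and -0.20 to 0.23 for Nlgn2. For double-positive against GFP-only cells, the range was -1.33 to 0.47 for Nxph3, -1.28 to 0.65 for Nrxn3 and -0.29 to 0.69 for Nlgn3. Between RFP-only and GFP-only cells it was -1.41 to 0.33 for Nrxn3. Summing Nlgn3 with Gm21986 and refitting the partner lists and named genes were chosen after seeing the data. Depth limits Nxph2, Nxph3, Nrxn2 and Nrxn3 most, with 5, 554, 358 and 423 reads in all.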
